A study of Rattus norvegicus with 10 samples.

Results

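The solute carrier (Slc) genes of the rat abdominal aorta are described here in 2 inbred strains, Brown Norway (BN) and LOU. They were taken as every array probe set whose annotation gives 1 gene symbol made of Slc and a digit. This gave 281 probe sets for 228 genes, out of 15866 probe sets and 10411 named genes measured. Of the 228, Slc4a1ap, an adaptor protein that binds a carrier, and Slc7a6os, a gene on the strand opposite to a carrier, are not carriers themselves. Each strain had 5 Affymetrix arrays, whose probes sit near transcript 3′ ends, made from total RNA of untreated rats with an age of 5 weeks in the labels. The growth notes give an upper limit of 18 weeks instead, the extraction notes mention the thoracic aorta beside the abdominal one, and sex is not given. No allele, transgene or agent is named for either strain. The series title names rare arterial and renal traits of BN, and LOU is the other strain against which BN was set. Whether every array is a separate rat is not stated, so p-values measure only the spread between these arrays, which may be technical.

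Solute carriers are membrane proteins that move small molecules and ions across the plasma membrane or the membranes of mitochondria, Golgi, lysosomes and vesicles. Most work as uniporters, as exchangers, or as cotransporters that draw on the sodium or proton gradient, and their number tells the family by sequence rather than by cargo. In the artery wall they are known for glucose and amino acid uptake by smooth muscle, arginine supply for nitric oxide in endothelium, calcium and chloride handling during contraction, phosphate entry, and export of ATP from mitochondria.

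The 10 arrays were similar in range, with a median signal of 97.4 to 105, and signals are in the linear units of the deposited table. The background level of an array was set as the 95th percentile of its 45 bacterial control probe sets, which ran from 21.2 to 49.2. The highest level was on BN array 1. All 10 smooth muscle marker genes lay above background on all 10 arrays, with a summed signal of 44588 to 66156 in BN and 40568 to 56669 in LOU. Markers of other tissues varied from array to array. The adipocyte list, with 11 of 13 genes above background in a strain, had a summed signal of 5980.0 to 35367 in BN and 7759 to 38209 in LOU. The nerve list (7 of 11 genes above background) summed to 856 to 4916 in BN, the highest on array 3, and 627 to 1324 in LOU. The skeletal muscle list (8 of 12) summed to 3407 to 6179 in BN and 2195 to 3521 in LOU. Its mean per array did not overlap between strains, but the mean includes Mb, above background on 5 BN and 2 LOU arrays.

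Of the 228 genes, 158 (69.3%) had a signal over background on all 5 arrays of 1 or both strains, against 78.0% of all 10411 genes. On all 10 arrays 144 (63.2%) were above it, against 70.8% of all genes. A further 22 were above it on no array, and 48 lay in between. With the level set at the highest bacterial control of each array, the 158 became 70. The matching count over all genes was not computed, so this drop is not a result about carriers. These shares count array signals over control probes, and a gene below the level is not shown to be absent from the aorta.

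The carriers of metals, nucleosides, nucleotide sugars and mitochondria were the fullest groups. Of 25 metal carriers 22 were above background in a strain, of 18 carriers of nucleosides and nucleotide sugars 16, and of 30 mitochondrial carriers 26. Among the mitochondrial ones were Slc25a4 and Slc25a5, which exchange ADP for ATP, and Slc25a3, which brings in phosphate for ATP synthesis. Others on all 10 arrays were Slc25a1 for citrate, Slc25a10 and Slc25a11 for dicarboxylates and oxoglutarate, Slc25a12 for aspartate and glutamate, and Slc25a20 for acylcarnitine. The metal group held the iron exporter Slc40a1, the copper importer Slc31a1, and Slc39a1, Slc39a3, Slc39a7, Slc39a8, Slc39a10, Slc39a13 and Slc39a14 of the zinc importers on all 10 arrays.

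The 22 genes above background on no array included carriers known from absorptive epithelia and from nerve. In the sugar group, 10 of 14 were above background on all 10 arrays, among them the glucose transporters Slc2a1, Slc2a3, Slc2a4 and Slc2a8. Slc2a2, the glucose transporter of liver and islet, and Slc5a1 and Slc5a2, the sodium-glucose cotransporters of gut and kidney, were above it on none. Among inorganic ion carriers 19 of 32 were above it in a strain, with the chloride cotransporter Slc12a2 and the sodium-calcium exchanger Slc8a1 on all 10 arrays. Slc12a1, the loop diuretic target of the kidney, Slc26a3, the chloride exchanger of the colon, and Slc24a1, the exchanger of rod cells, were above it on none. Slc18a3 and Slc5a7, which serve acetylcholine vesicles and choline uptake in nerve endings, were likewise on none.

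The other groups were filled in part. Amino acid and peptide carriers had 24 of 39 genes above background in a strain, organic ion carriers 11 of 17, and carriers of amines, choline and neurotransmitters 8 of 15. Lipid and bile acid carriers had 6 of 9, vitamin carriers 4 of 8, mono- and dicarboxylate carriers 4 of 11, and phosphate carriers 3 of 4. The carboxylate genes above it were Slc16a1, Slc16a3, Slc16a6 and Slc16a7, and Slc13a2, the citrate carrier of kidney and gut, was above it on no array.

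**Figure D1:**
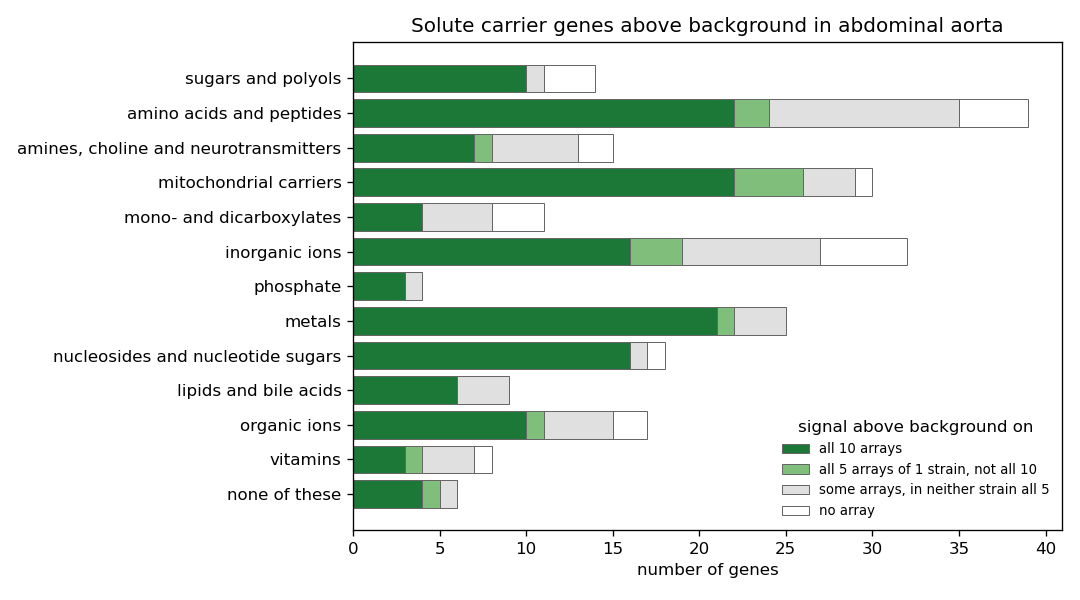
Number of solute carrier genes (x axis) in each group by cargo (y axis), split by how many arrays had a signal above the background level. Most metal, nucleotide sugar and mitochondrial carriers were above background on all 10 arrays, while in the carboxylate group 4 of 11 were.

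The comparison of BN with LOU asks which carriers differ between the strains. With limma over all genes, 3 of 228 carriers passed an adjusted p of 0.05 (1.32%), against 0.864% of all genes. Slc22a2 and Slc25a23 were higher in BN, where 0.279% of all genes were called, and Slc2a13 was lower, where 0.586% were. Among the 281 probe sets 3 passed (1.07%), against 0.788% of all, 2 of them higher in BN (0.246% of all probe sets) and 1 lower (0.542%). The signals of 15 genes (6.58%) did not overlap between strains, against 4.38% of all genes, 8 of them higher in BN (1.75% of all genes) and 7 lower (2.63%). By probe set these were 18 (6.41%), against 4.18%, with 8 higher (1.41%) and 10 lower (2.77%). At an unadjusted p under 0.05 there were 38 carriers (16.7%), against 13.8% of all genes. The carriers as a whole were centred as other genes were, with a median log2 difference of -0.03 and of -0.02 over all genes. The split was 100 positive and 128 negative as deposited, 119 and 109 after median centring, and 114 each way after quantile normalization.

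**Figure D2:**
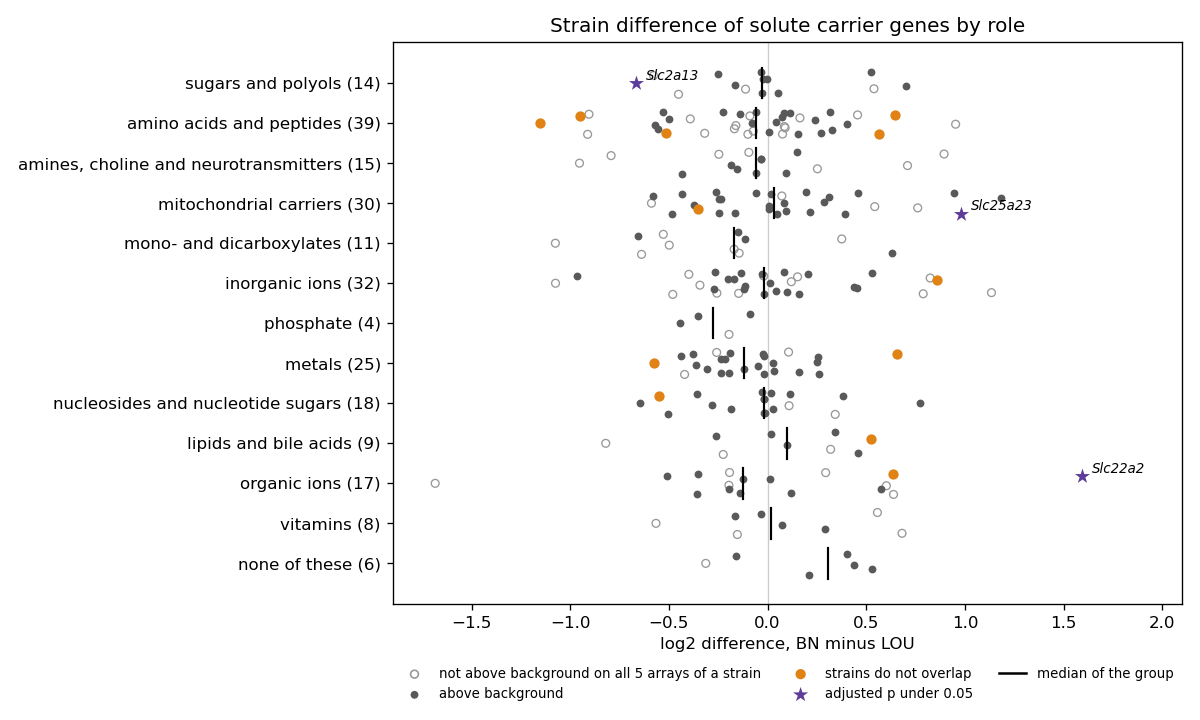
Log2 difference between strains (x axis, BN minus LOU) of each of the 228 genes in its cargo group (y axis, number of genes in brackets), with the median of each group as a bar. Stars mark the 3 genes past the test, Slc22a2 at 1.59, Slc25a23 at 0.98 and Slc2a13 at -0.67, orange points the other 12 whose strains do not overlap, and open circles genes with neither strain above background on all its arrays.

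The strain difference of the 3 called genes is in probe signal, and probe sequences were not read. A difference in transcript level and one in probe binding therefore cannot be told apart. The promoter sequences of these genes are printed as a description. They are the 250 bases before the annotated start of each gene, read 5′ to 3′ along the gene, from RefSeq on the GRCr8 assembly, which is itself of a BN rat. The LOU sequence was not read here. Slc22a2 lies on the minus strand at chr1:50711020-50711269, Slc25a23 on the minus strand at chr9:1985366-1985615, and Slc2a13 on the minus strand at chr7:124606147-124606396. Capitals mark matches, on either strand, to the TATA box letters TATAAA, the GC box letters GGGCGG and the CAAT box letters CCAAT, and no matches overlap.
Slc22a2: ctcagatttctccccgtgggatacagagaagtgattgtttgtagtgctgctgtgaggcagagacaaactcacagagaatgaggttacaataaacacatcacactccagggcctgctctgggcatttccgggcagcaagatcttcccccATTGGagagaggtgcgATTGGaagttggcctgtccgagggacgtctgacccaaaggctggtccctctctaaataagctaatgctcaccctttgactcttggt
Slc25a23: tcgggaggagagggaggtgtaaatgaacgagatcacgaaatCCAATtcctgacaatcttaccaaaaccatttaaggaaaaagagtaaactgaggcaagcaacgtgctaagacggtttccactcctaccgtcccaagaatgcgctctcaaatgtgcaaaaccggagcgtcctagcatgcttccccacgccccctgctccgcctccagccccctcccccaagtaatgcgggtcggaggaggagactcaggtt
Slc2a13: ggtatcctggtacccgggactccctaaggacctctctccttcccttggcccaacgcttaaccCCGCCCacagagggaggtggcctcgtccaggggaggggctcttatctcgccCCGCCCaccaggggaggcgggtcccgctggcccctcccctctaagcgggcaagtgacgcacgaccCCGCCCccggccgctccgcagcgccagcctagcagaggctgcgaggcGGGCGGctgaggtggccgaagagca

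The 3 windows differed in base composition and in motifs. That of Slc22a2 had 51.2% G and C and CCAAT on the other strand 102 and 86 bases before the start. Slc25a23 had 53.2% G and C and CCAAT as printed at 209 bases. Slc2a13 had 71.2% G and C, with GGGCGG on the other strand at 188, 137 and 72 bases and as printed at 25 bases. The letters TATAAA occurred in none of them. Of all 33465 windows of this length, 12.9% held TATAAA, 30.5% GGGCGG and 34.0% CCAAT. Of the 207 windows of solute carrier genes, these shares were 7.73%, 51.2% and 34.8%, and their median G and C content was 59.2%, against 51.2% over all windows. The carrier windows were limited to genes on the array and the 33465 were not, so the sets are unlike and no trait of carriers is read from them. A match is a description of letters and not a measured binding site.

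Slc22a2 (probe set 1387303_at), an organic cation transporter best known for uptake of drugs and amines into the kidney tubule, had the largest positive difference of all carriers. Its signals were 154, 135, 117, 199 and 236.5 on the BN arrays and 49.9, 54.1, 75.3, 62.2 and 36.4 on the LOU arrays. The lowest BN array stood above the highest LOU array, and all 10 were above background. The means were 168 ± 48.8 in BN and 55.6 ± 14.4 in LOU (SD, n = 5 each). The log2 difference was 1.59 (SE 0.24, 95% interval 1.05 to 2.13), 3.02-fold higher in BN, with a limma adjusted p of 0.0153 over 10411 genes. It passed the test over genes with each of the 10 arrays left out in turn, and over probe sets it failed without LOU array 2. In bulk tissue, fewer cells of a type and less RNA per cell cannot be told apart, here and in every result that follows. The mean of the skeletal muscle markers above background was 0.13 to 0.60 on the BN arrays and -0.51 to -0.21 in LOU (log2, centred over the 10 arrays). Of the 12 genes of that list, 6 had positive and 6 negative differences, and Mb (myoglobin), at 3.73, was the 1 gene without overlap. Mb entered the mean only through BN, as 2 of its LOU arrays were above background, so the gap between strains is partly built in. The part of this list in the Slc22a2 result was not tested.

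Slc25a23 (1379073_at), a calcium-regulated mitochondrial carrier that swaps ATP-magnesium for phosphate, was also higher in BN. The BN arrays had signals of 133, 139, 105, 103.5 and 161, and the LOU arrays 53.6, 77.0, 61.0, 62.1 and 68.8. Every BN array was above every LOU array. The means were 128 ± 24.4 and 64.5 ± 8.83 (SD, n = 5 each), and the log2 difference was 0.98 (SE 0.16, 95% interval 0.62 to 1.34), 1.97-fold, with a limma adjusted p of 0.0224. The call was lost, at an adjusted p of 0.0505 to 0.0769, without BN array 1, BN array 2, LOU array 3, LOU array 4 or LOU array 5, and over probe sets also without LOU array 1. It was also lost, at 0.0512, without BN array 3 and LOU array 1 together. Its close relative Slc25a25 was among the carriers whose arrays varied most within a strain and had a log2 difference of -0.43 (adjusted p 0.609).

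Slc2a13 (1369680_at) encodes a proton-coupled transporter of myo-inositol, the sugar alcohol from which phosphoinositides are built, and it was lower in BN. Its signals were 73.4, 75.4, 74.2, 80.4 and 73.6 in BN and 104, 120.5, 123, 121 and 132 in LOU. All BN arrays lay below all LOU arrays and within a narrow range, with a mean of 75.4 ± 2.90 against 120.1 ± 10.3 (SD, n = 5 each). The log2 difference was -0.67 (SE 0.11, 95% interval -0.90 to -0.43), 1.59-fold lower, with a limma adjusted p of 0.0153, or 0.0567 without LOU array 3. Over probe sets it failed without BN array 2 and without LOU array 2, 3, 4 or 5. A second probe set of the gene (1389310_at) read 85.9, 34.8, 71.0, 77.2 and 82.5 in BN and 108, 154, 131, 117 and 147 in LOU. It too did not overlap between strains, with a log2 difference of -0.96 and an adjusted p of 0.126 over all probe sets. All 9 fibroblast markers were above background, and their mean was also lower in BN (-0.51 to -0.05, against -0.05 to 0.69 in LOU). All 6 macrophage markers had negative differences too, with a median of -0.35, and their mean was highest on LOU array 1, at 1.13. The part of either list in the Slc2a13 result was not tested.

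**Figure D3:**
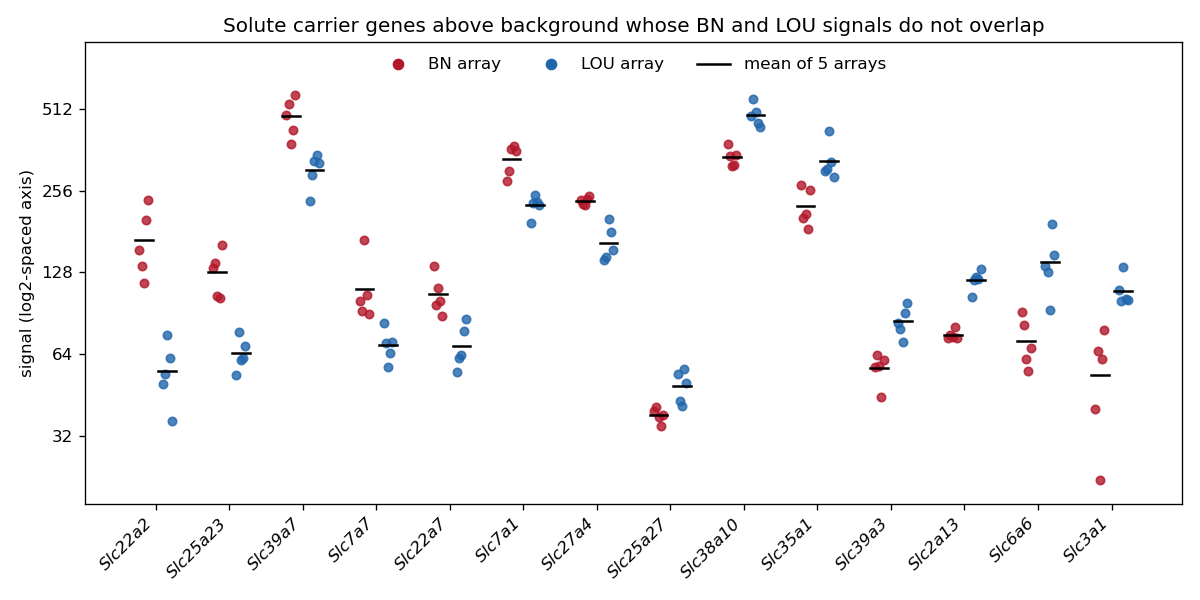
Signal of each array (y axis, log2-spaced, linear units of the deposited table) for the 14 solute carrier genes above background whose 5 BN (red) and 5 LOU (blue) arrays do not overlap (x axis), with the mean of each strain as a bar. Genes higher in BN stand to the left of genes lower in BN, and only Slc22a2, Slc25a23 and Slc2a13 passed the limma test.

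Amino acid carriers supplied 5 of the 15 genes without overlap, 2 with higher and 3 with lower signals in BN, and none passed the test. They are 5 of 39 genes in the group, where 4.38% of all genes did not overlap (1.75% higher and 2.63% lower). At an unadjusted p under 0.05 there were 8 of 39 genes in this group, against 13.8% of all genes. Slc7a1, the main arginine and lysine importer, read 277, 303, 363, 375 and 358 in BN and 195, 230.5, 247, 232.5 and 227 in LOU. The lowest BN array was above the highest LOU array, and the log2 difference was 0.56 (SE 0.13, adjusted p 0.0766). Its other probe sets had differences of 0.63 and 0.24 and did overlap. Slc7a7, which with Slc3a2 exports arginine and other cationic amino acids, read 100.1, 92.0, 168, 105 and 89.9 in BN and 83.6, 70.3, 57.5, 64.9 and 71.1 in LOU. BN array 3 stood well above the rest, and the log2 difference was 0.65 (SE 0.19, adjusted p 0.156). Slc7a2, another cationic amino acid importer, was above background on 1 BN and 2 LOU arrays only.

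The taurine transporter Slc6a6 read 91.7, 82.0, 61.5, 55.5 and 67.2 in BN and 135, 129, 92.8, 194 and 148 in LOU. The highest BN array was just under the lowest LOU array, and the log2 difference was -0.95 (SE 0.21, adjusted p 0.0766). Its other probe set was above background on no array. Slc38a10, a member of the family that carries glutamine and other neutral amino acids, read 381, 342, 314.5, 318 and 347 in BN and 484, 557, 501, 454 and 439.9 in LOU. The strains stood apart with a log2 difference of -0.52 (SE 0.11, adjusted p 0.0654). Slc3a1, the heavy chain of the kidney cystine transporter, read 40.3, 65.7, 22.1, 61.5 and 78.3 in BN, where 3 arrays were above background. In LOU it read 110.3, 101, 134, 102 and 102, all above background, for a log2 difference of -1.16 (SE 0.31, adjusted p 0.135).

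The best known amino acid carriers of growing cells overlapped between strains. Slc1a5, a glutamine importer, had means of 448.5 ± 135 in BN and 649 ± 197 in LOU (SD, n = 5 each), a log2 difference of -0.55 (limma adjusted p 0.418). Slc38a2, which takes up small neutral amino acids with sodium, differed by -0.08 (95% interval -0.40 to 0.24). Slc3a2, the heavy chain shared by several exchangers, differed by 0.07 (-0.21 to 0.36). Of all 39 amino acid and peptide genes, 19 had positive and 20 negative differences, with a median of -0.06.

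Sugar carriers other than Slc2a13 overlapped. Slc2a4, the insulin-regulated glucose transporter of muscle and fat, read 1188, 1538, 636, 1057 and 443 in BN and 1010.2, 533, 434, 342 and 596 in LOU. The strains overlapped widely, with means of 973 ± 438 and 583 ± 258 (SD, n = 5 each), and the limma log2 difference was 0.70 (SE 0.38, adjusted p 0.450). A second Slc2a4 probe set ran from 222 to 362 in BN and from 233 to 297 in LOU, a log2 difference of 0.05. Slc2a1, the glucose transporter of most cells, differed by 0.05 (95% interval -0.31 to 0.41). Slc2a3, known from neurons, differed by 0.53 (adjusted p 0.313) and by -0.03 on its other probe set.

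Mitochondrial carriers had 18 positive and 12 negative differences with a median of 0.03. Slc25a5, the ADP/ATP exchanger of dividing cells, read 3201, 3554, 2317, 2628 and 2240.4 in BN and 3521, 2387, 2038, 2007 and 2299 in LOU. The arrays of the strains were intermixed, with a log2 difference of 0.19 (SE 0.20, adjusted p 0.691). Slc25a4, the exchanger of heart and muscle, ran from 2067 to 2589 in BN and from 2009.8 to 2498 in LOU, and differed by 0.01 (95% interval -0.25 to 0.27), a value that was -0.068 after quantile normalization. Slc25a3 differed by 0.09 (-0.14 to 0.32). These intervals do not show equal levels, and the widest of them, that of Slc25a5, ran from -0.24 to 0.63. Slc25a27, an uncoupling protein of neurons with 3 probe sets of mixed sign, was the other mitochondrial carrier without overlap, on its brightest probe set. It read 39.4, 40.8, 37.7, 34.7 and 38.2 in BN, with 4 of these arrays above background, and 54.0, 43.2, 41.1, 56.3 and 50.1 in LOU, a log2 difference of -0.35 (adjusted p 0.234).

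Metal and lipid carriers each had genes without overlap. Slc39a7, which releases zinc from the endoplasmic reticulum, read 488, 534, 381, 427 and 575 in BN and 234, 292.5, 329.5, 345 and 323 in LOU. The strains stood apart, with a log2 difference of 0.66 (SE 0.16, adjusted p 0.0910). Slc39a3, a zinc importer of the same family, read 57.5, 63.8, 57.7, 44.4 and 61.1 in BN and 83.1, 79.5, 70.8, 91.0 and 99.2 in LOU, all BN arrays below all LOU arrays. Its log2 difference was -0.58 (SE 0.14, adjusted p 0.0942), opposite in sign to that of Slc39a7. Slc27a4, a fatty acid transport protein with acyl-CoA synthetase activity, read 237, 229, 226, 238 and 244 in BN and 142, 146, 201, 180.2 and 155 in LOU. Its BN arrays were closely grouped above the LOU arrays, and the log2 difference was 0.52 (SE 0.12, adjusted p 0.0850). Of the 25 metal carriers 8 had positive and 17 negative differences, or 12 and 13 after median centring. Slc10a3 of the lipid and bile acid group differed by -0.26 (adjusted p 0.311).

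Among the other groups, Slc35a1 supplies the Golgi with CMP-sialic acid. It read 268, 203, 211, 185 and 258 in BN and 303, 306, 425, 327 and 286 in LOU, without overlap, a log2 difference of -0.55 (SE 0.16, adjusted p 0.148). Of its 3 other probe sets 1 also did not overlap, at -0.60, and the rest had differences of -0.47 and -0.00. Slc35b2, which carries the sulfate donor of proteoglycans into the Golgi, read 63.3 to 122 in BN and 120.1 to 166.5 in LOU. The strains overlapped only between BN array 2 and LOU array 1, and the log2 difference was -0.65 (adjusted p 0.158). Slc29a1, the adenosine transporter of the plasma membrane, differed by -0.02 (95% interval -0.30 to 0.26), a value that was 0.031 after median centring.

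Slc22a7, an organic anion transporter known from liver and kidney, read 135, 97.0, 113, 100.4 and 88.6 in BN. Its LOU signals were 55.2, 61.8, 63.4, 77.7 and 86.2, just below the lowest BN array, and the log2 difference was 0.64 (SE 0.17, adjusted p 0.118). It stood with Slc22a2 as the organic ion carriers without overlap. Slc9a3, the sodium-proton exchanger of kidney and gut, read 35.7 to 56.5 in BN and at most 33.2 in LOU, where 1 array was above background. Its log2 difference of 0.86 had an adjusted p of 0.285, and 3 of its BN arrays were above background.

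Ion, phosphate and carboxylate carriers of smooth muscle overlapped. The sodium-calcium exchanger Slc8a1 had means of 249 ± 50.2 in BN and 298 ± 46.2 in LOU (SD, n = 5 each), a log2 difference of -0.27 (limma adjusted p 0.536). Its other probe set had the same sign. With 1 array left out the Slc8a1 difference ran from -0.35 to -0.16. Across the other alternative fits it ran from -0.82 to -0.22, and it passed the test in none. Slc12a2, which loads smooth muscle with chloride, differed by 0.44 (adjusted p 0.428), and the bicarbonate carrier Slc4a4 by 0.04 (95% interval -0.99 to 1.07). All 4 phosphate carriers had negative differences, also after median centring and after quantile normalization, with a median of -0.27. Slc20a1 and Slc20a2, the sodium-phosphate cotransporters of vascular cells, differed by -0.35 (adjusted p 0.323) and -0.44 (adjusted p 0.252), and neither passed the test. Of the lactate and pyruvate carriers, Slc16a1 differed by 0.63 (adjusted p 0.437), Slc16a3 by -0.11 (0.747) and Slc16a7 by -0.66 (0.323).

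The remaining carriers compared overlapped between strains too. The choline carrier Slc44a1 differed by -0.43 (adjusted p 0.361), with -0.13 and 0.39 on its other probe sets. The dopamine transporter Slc6a3 differed by -0.19 (0.670), and by 0.83 on its other probe set. Slc5a6, the carrier of biotin and pantothenate, differed by 0.29 (0.728) and the ascorbate carrier Slc23a1 by -0.16 (0.819). The adaptor gene Slc4a1ap differed by -0.97 (0.378). Across the 40 carriers with several probe sets, all of a gene's probe sets had 1 sign in 24 and mixed signs in 16.

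Some carriers varied widely between arrays of the same strain. Of the 144 carriers above background on all 10 arrays, the median SD within a strain was 0.29 on the log2 scale, against 0.26 for 7370 genes chosen the same way. An SD over 0.5 was found in 20 carriers (13.9%), against 7.19% of all genes, and these 20 were picked with their values in view. They included 7 mitochondrial carriers (Slc25a1, Slc25a10, Slc25a20, Slc25a22, Slc25a25, Slc25a35 and Slc25a42) and the fatty acid transport proteins Slc27a1, Slc27a2 and Slc27a3. BN array 2 was the highest of the 10 in 7 of them and LOU array 4 the lowest in 6.

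Of these, 3 are given here beside fat markers. Slc25a20, which brings acylcarnitine into mitochondria for fat oxidation, read 579, 849.5, 346, 473 and 139 in BN and 443, 268, 133, 108 and 252 in LOU. Slc25a1, the citrate exporter that feeds fatty acid synthesis, read 1764, 2812, 1891, 1866 and 561.5 in BN and 1611, 668, 585, 354 and 726.5 in LOU. Both were highest on BN array 2 and lowest on LOU array 4, and BN array 5 was the lowest of its strain. Slc27a1, the insulin-responsive fatty acid transporter of fat and muscle, ran from 595 to 2032 in BN and from 628 to 1503 in LOU, with LOU array 1 the highest of its strain. The differences between strains of 0.94, 1.18 and 0.46 did not pass the test (adjusted p 0.457, 0.303 and 0.605).

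The mean of the adipocyte markers was 0.75, 0.95, -0.43, 0.49 and -1.36 on the BN arrays and 1.11, 0.13, -0.83, -0.95 and 0.14 on the LOU arrays (log2, centred), highest on LOU array 1 and lowest on BN array 5. That of the brown adipocyte markers (5 of 9 above background in a strain) was 1.51, 1.78, 0.46, 0.56 and -1.16 in BN and 0.93, -0.09, -1.55, -2.47 and 0.03 in LOU. Cox8b entered this mean only through BN, as 4 of its LOU arrays were above background, so the gap between strains is partly built in. Its signal was lowest on LOU array 4, at 27.0, which also lowers the mean there. Ucp1, the uncoupling protein that defines brown fat, read 9039, 12345, 4677, 4701 and 1005.3 in BN and 5451, 2966, 751, 485 and 3269.7 in LOU. Brown adipocyte markers and Ucp1 were highest on BN array 2 and lowest on LOU array 4, as Slc25a20, Slc25a1 and Slc2a4 were. The part of fat in the strain differences of these carriers was not tested.

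BN array 3 alone carried a high signal of a few others. Slc18a2, the vesicle transporter of catecholamines, read 527 there, 71.2 to 92.7 on the other BN arrays and 87.3 to 186.5 in LOU, and its other probe set read 631 there. Slc31a1 read 1040.4 on BN array 3, 203 to 304 on the other BN arrays and 281 to 296 in LOU. Slc22a17, a receptor for lipocalin-bound iron, read 469 there, 137 to 187 on the other BN arrays and 142 to 228 in LOU. The same array stood apart in Th and Dbh, the enzymes of noradrenaline synthesis, at 2608 and 3145.7. The other 9 arrays reached at most 366 in Th and 286 in Dbh. The nerve marker mean was 1.44 on BN array 3 and -0.74 to 0.32 on the other 9 arrays, and its part in these signals was not tested. Between strains, 10 of the 11 nerve genes had positive differences, with a median of 0.86. Mbp of this list read 298 to 770 in BN and 75.9 to 198 in LOU, without overlap. Its log2 difference was 1.73 (limma adjusted p 0.0448, where 0.864% of all genes were called). Sox10 did not overlap either, above background on 4 BN and 0 LOU arrays.

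**Figure D4:**
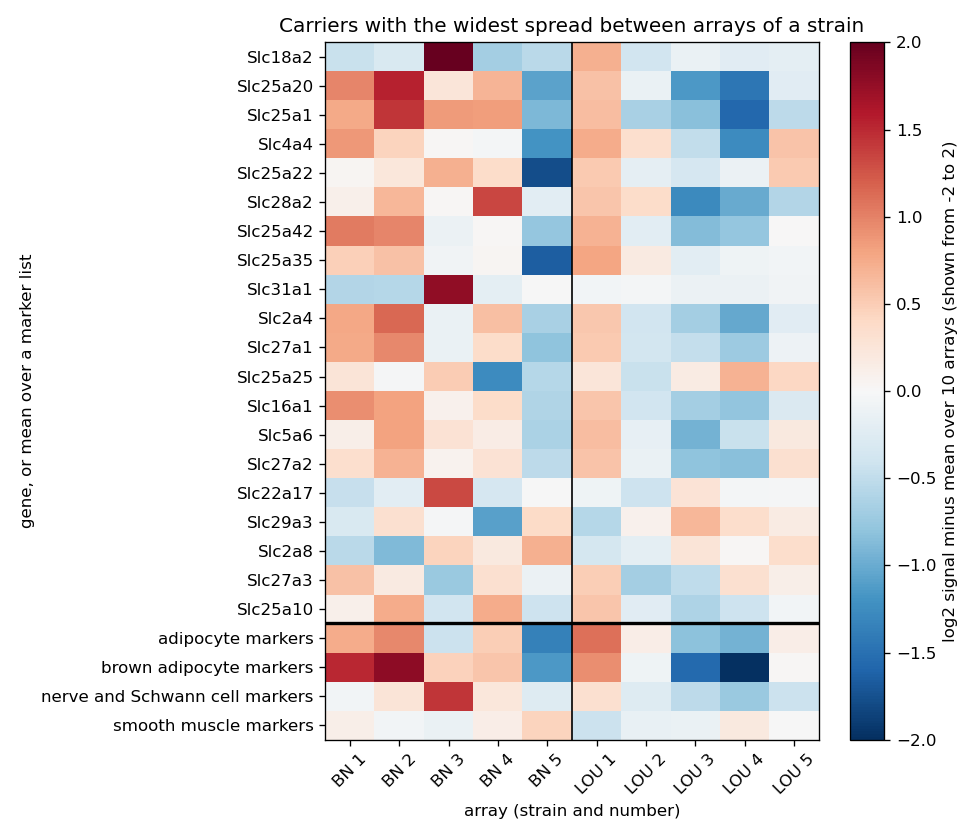
Log2 signal minus its mean over the 10 arrays (colour, shown from -2 to 2) of the 20 carriers with the widest spread between arrays of a strain, above the means of 4 marker lists (rows), on each array (columns, BN left and LOU right of the line). Slc25a20, Slc25a1 and Slc2a4 are, like the brown adipocyte list, highest on BN array 2 and lowest on LOU array 4, while the adipocyte list is highest on LOU array 1 and lowest on BN array 5, and Slc18a2, Slc31a1 and Slc22a17 are darkest on BN array 3.

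Genes that work with the carriers were read from lists of their own. Among 22 carriers under other names and carrier partners, none passed limma at an adjusted p of 0.05 and 7 (31.8%) had an unadjusted p under 0.05, against 13.8% of all genes. In this list 17 had positive differences and the median was 0.33, against -0.02 over all genes. The mean of its 21 genes above background was 0.32, 0.39, 0.21, 0.16 and -0.36 on the BN arrays and 0.34, -0.06, -0.31, -0.50 and -0.20 on the LOU arrays. It was highest on BN array 2 and lowest on LOU array 4, as the brown adipocyte mean was. Both lists hold Ucp1, which had the same highest and lowest arrays, so this match is partly built in. The part of fat in this list was not tested. Mtch1, an outer membrane relative of the mitochondrial carriers, read 2114, 2013, 1680.5, 1641 and 1575 in BN and 1364, 1298, 1286, 1170.1 and 1253 in LOU. Its strains did not overlap, with a log2 difference of 0.49 (adjusted p 0.0919). Mpc2, a subunit of the mitochondrial pyruvate carrier, differed by 0.88 (0.161) and was also highest on BN array 2 and lowest on LOU array 4. Slco1c1, a thyroid hormone carrier without overlap at 2.73 (0.0735), exceeded background on 2 of the BN arrays and none of the LOU arrays. Of 22 genes that set the ion gradients and their kinases, none passed limma and 1 (4.55%) had an unadjusted p under 0.05, against 13.8% of all genes, with 10 positive differences and a median of -0.01. Of 18 genes of glucose uptake, none passed limma and 1 (5.56%) had an unadjusted p under 0.05, against the same 13.8%, with 6 positive differences and a median of -0.04.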

How the data were processed

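The deposited intensity values are array signals on a linear scale, 1 per probe set. RMA is named, with no version, in the submitters' processing notes, but a 2% trimmed mean of 200.05 to 200.06 on every array and 4 values of 0 point to linear signals scaled to a common mean, and no further step is given in the sources used here. The planned test took log2 values, so log2(signal) was computed, with 0 set to 0.1. The strain test was limma 3.58.1 under R 4.3.3 (lmFit then eBayes, BN minus LOU, two-sided, Benjamini-Hochberg, threshold 0.05) over 15866 probe sets, without 57 controls, and over 10411 genes, each read from its brightest probe set. Adjusted p-values in the text are over genes unless stated. Probe set annotation gave 12783 probe sets 1 symbol, 312 several and 2771 none. Symbols were updated by gene identifier (12748) or accession (2) with the GRCr8 RefSeq table, and 33 were kept. SD, fold and log2 differences are between arrays, and a fold is 2 to the power of the log2 difference. The precision is limited by the number of arrays.

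The members, cargo groups and lists were chosen with earlier results of these data known. Genes were named if they passed the test, were among the 15 largest differences of those above background without overlap, had the 2 smallest p-values above background in their cargo group, or were on a list of 21 carriers of which 20 were measured. Others are named for their role, or were chosen after their values were seen, as Slc9a3, Slc25a1, Slc25a25 and the carriers that varied between arrays. Alternatives were median centring, quantile normalization, a floor of 32, a pseudocount of 16, array weights, a filter on dim probe sets, a trended prior variance, a block on the replicate number, single arrays left out, BN array 3 left out with LOU array 1, averaging each gene's probe sets, symbols as listed, and other background levels. Scripts were tested on simulated data. Summaries used Python 3.11.15, numpy 2.4.6 and pandas 2.3.3, and figures used matplotlib 3.10.9.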

Additional observations from a re-analysis of the deposited data

Results flagged for a closer look

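In 41 genes, each strain with all 5 arrays above background was tested as a group of its own. In 3 groups an array was far from the other 4 by Dixon's criterion, where chance gives about 1 in 20 groups. The number of groups was not counted, so the share flagged is not set against chance. Slc7a7 read 168.4 on BN array 3 and 89.9 to 105.4 on the other BN arrays. Slc39a3 read 44.4 on BN array 4 and 57.5 to 63.8 on the others. Slc6a3 read 51.4 on BN array 1, the array with the highest background, and 70.0 to 76.9 on the others.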

How the results depend on the processing

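Slc22a2, Slc25a23 and Slc2a13 all passed the test after median centring, quantile normalization, array weights, averaging of each gene's probe sets and symbols as listed. The count of carriers called was 3 by probe set and 3 by gene, of 125 and 90 called in all. It became 6 and 6 with a floor of 32 (186 and 132 in all), and 6 and 6 with a variance trend (242 and 161). It became 9 and 8 without the dimmest 40% of probe sets (253 and 172), and 7 and 8 with only probe sets above background (263 and 174). The genes added in these fits were among Slc38a10, Slc7a1, Slc27a4, Slc39a7 and Slc6a6, and with fewer probe sets the adjustment is over fewer tests. With each array left out in turn the count ran from 1 to 3 by probe set and from 1 to 4 by gene, the lowest by gene without LOU array 3. The probe sets without overlap, 18 (6.41%, against 4.18% of all), became 32 without BN array 3 and LOU array 1 together. They were 19 to 27 with 1 array left out. With fewer arrays any probe set is less likely to overlap, and the shares over all probe sets in these settings were not computed, so the rise is not a result about carriers. The 158 genes above background became 70 with the highest bacterial control as the level, where the share of all genes was not computed. With the level unchanged the 158 became 160 without BN array 3 and LOU array 1, a choice made after seeing the data.

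The replicate number as a block left 0 carriers called by probe set and 0 by gene (limma), with 12 genes called of all. At an unadjusted p under 0.05 it left 42 of 228 carriers (18.4%), against 12.3% of all genes. Deviations from the strain means of arrays with the same number had correlations of 0.17, -0.03, -0.05, -0.06 and -0.03. Only BN array 1 correlated best with the LOU array of its own number. The labels do not say whether the numbers pair the arrays, and these correlations cannot settle it.

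Differences near 0 changed sign, and the cause was not tested. Slc25a4 was -0.068 after quantile normalization and -0.013 without BN array 3 and LOU array 1, Slc29a1 0.031 after median centring, Slc6a3 0.32 as the mean of its probe sets, and Slc7a2 -0.051 with a floor of 32 and -0.052 without those arrays. With 1 array left out, the range was -0.036 to 0.045 for Slc25a4, -0.085 to 0.042 for Slc29a1, -0.046 to 0.12 for Slc2a1, -0.15 to 0.014 for Slc38a2, -0.0054 to 0.12 for Slc3a2, -0.27 to 0.35 for Slc4a4 and -0.092 to 0.29 for Slc7a2.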
